A study of Rattus norvegicus with 9 samples.

Results

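miR-22-3p, miR-423-3p, miR-320-3p and rno-miR-652-3p belong to 4 small groups of miRNAs that have been proposed as circulating markers of heart failure, and their levels were followed in the serum of rats with a loaded right ventricle (RV). Every row of the serum miRNA table named miR-652, miR-423, miR-320 or miR-22, with either arm of the precursor, was taken, which gave 6 of the 276 listed miRNAs. They were miR-22-3p, miR-22-5p, miR-423-3p, miR-423-5p, miR-320-3p and miR-652-3p. The rule uses names and no measured value, although the 4 groups were picked with earlier results of these data known. The rats were wild-type male Sprague-Dawley (SD) rats aged 4 weeks at surgery. A group of 3 had a sham operation, and a group of 6 had pulmonary artery banding (PAB), in which a fixed ring around the proximal pulmonary artery raises the load on the RV without a primary disease of the lung vessels. Blood serum was sampled 4 weeks after surgery and sequenced as small RNA, so that n = 3 for the sham group and n = 6 for the PAB group.

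miRNAs are short RNAs that lower the output of messenger RNAs paired with their seed, the bases 2 to 8 from the 5′ end. Each hairpin precursor can yield a 5p and a 3p arm, of which one is usually kept and the other degraded. In blood they travel in vesicles, in lipoproteins and bound to Argonaute proteins, and they come from blood cells, vessel wall, liver, heart and other organs. miR-22 is abundant in heart muscle and promotes cardiomyocyte growth in mice. miR-423-5p was proposed as a plasma marker in patients with heart failure, and miR-320 and miR-22 were proposed beside it. miR-652-3p was proposed as a marker of acute heart failure, and its inhibition eased the response of the mouse heart to pressure load. miR-22, miR-320 and miR-423 are also found in red blood cells and platelets, so a serum level has no single source.

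Mature sequences were found for 4 of the 6 miRNAs among the RefSeq miRNAs of the rat build GRCr8. They are shown because the seeds tell whether the group shares targets, and the seed is in capitals.
miR-22-3p: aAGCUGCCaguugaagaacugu
miR-22-5p: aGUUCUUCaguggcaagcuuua
miR-423-5p: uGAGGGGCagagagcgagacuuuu
miR-652-3p: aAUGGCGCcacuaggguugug
The 4 seeds were all different, and none of them was the seed of another listed miRNA with a known mature sequence (196 of the 276 matched by name). miR-22-5p lies at chr10:60805349-60805370 and miR-22-3p at chr10:60805387-60805408, both on the plus strand. miR-423-5p lies at chr10:62412317-62412340 on the minus strand, and miR-652-3p at chrX:111140129-111140149 on the plus strand. In the RefSeq annotation, the miR-423 precursor lies within the span of Nsrp1 and that of miR-652 within the span of Tmem164, while no other gene spans the precursors of miR-22 and miR-320. The hairpin of miR-22 is shown because both of its arms were tested, and the arms are in capitals, the 5p arm first.
miR-22 hairpin: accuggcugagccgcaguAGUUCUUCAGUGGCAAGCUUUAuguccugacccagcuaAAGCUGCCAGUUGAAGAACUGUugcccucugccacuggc

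The libraries held 19477 to 65313 miRNA reads each. The levels deposited as RPM (reads scaled to a common library total) imply totals of 12630000 to 19250000 reads per library, of which miRNAs took 0.332% to 0.517% for sham and 0.101% to 0.412% for PAB. A count of 3 reads, used as the floor of detection, was worth 0.156 to 0.238 RPM, and intervals and floors cover counting error only, since reads were amplified by PCR with no molecular identifiers named. Of miRNAs usual in serum, miR-191a-5p, found in platelets, had 2163 reads or more in all 9 libraries. miR-451-5p of red blood cells had 3 to 1474 reads, and the 3 reads, in PAB library 5, are at the floor. miR-122-5p of liver had 0 reads in PAB libraries 4 and 5. The labels give 1 batch entry, week 4, for all samples.

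In serum, miR-22-3p was the most abundant of the 6, followed by miR-652-3p and miR-423-3p, at places 17, 24 and 37 of the 276 miRNAs by mean RPM. miR-320-3p was scarce, at place 111, and the arms miR-22-5p and miR-423-5p were close to absent, with 10 and 3 reads over all libraries. edgeR's quasi-likelihood test was run for the 5 of the 6 that passed the filter, a value above 0 in at least 3 of the 9 libraries, and it called 0 of them higher and 0 lower in the PAB group at an adjusted p ≤ 0.05 and |log2FC| ≥ 1. Among all 162 tested miRNAs, 0% were called higher and 1.23% lower. Without adjustment, 0 of the 5 had p under 0.05 in edgeR, while of the 162 there were 17 lower and 7 higher. Log2FC is PAB against sham throughout, and for the 5 it ran from −1.82 to 0.18 with a median of −0.73, where the median of all tested miRNAs was −0.15. DESeq2 and limma-voom on the same miRNAs also called 0 of the 5. Of all tested miRNAs, DESeq2 called 5.56% higher and 2.47% lower, and limma-voom called 0 either way.

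**Figure D1:**
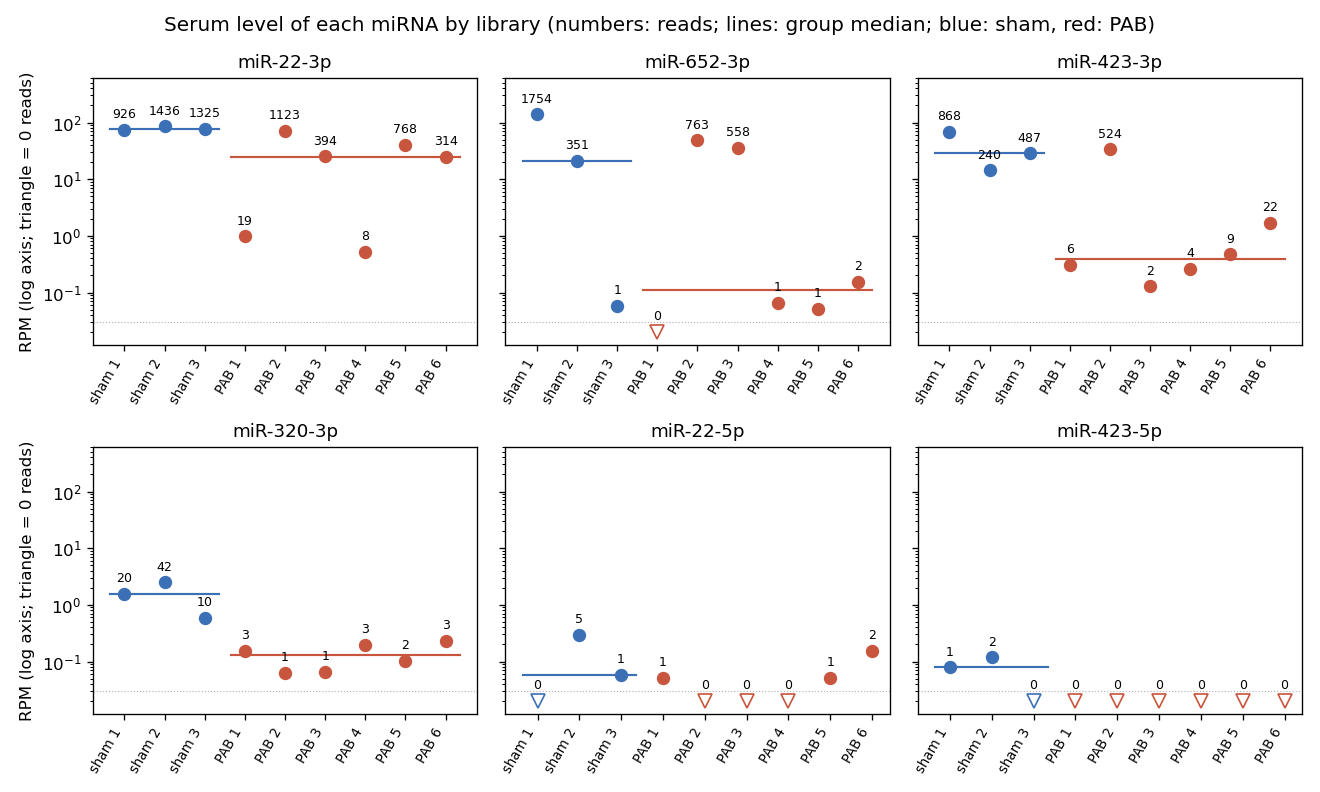
RPM of the 6 miRNAs (vertical log axis) in each of the 9 libraries (horizontal axis), blue for sham and red for PAB, with the number of reads above each point, the group median as a line where it is above 0.03 RPM, and triangles below the dotted line for 0 reads. miR-652-3p and miR-423-3p sit either at 240 reads or more or at 22 or fewer, and every sham value of miR-320-3p lies above every PAB value.

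In RPM, miR-22-3p, the arm of miR-22 that is kept, was steady in the sham group and spread widely in the PAB group. The sham libraries held 73.3, 85.8 and 78.1 RPM, from 926, 1436 and 1325 reads. The PAB libraries ran from 0.522 RPM to 71.8 RPM with a median of 24.97 RPM. PAB library 2, with 1123 reads, came close to the sham group, whereas PAB libraries 1 and 4 were far below all others with 19 and 8 reads. All 6 PAB values were below the lowest sham value in RPM. The group means were 79.1 ± 6.27 RPM (SD, n = 3) and 27.2 ± 26.7 RPM (SD, n = 6), so that the mean was 2.91-fold higher in the sham group. The difference of log2(RPM + 0.1) was −2.93 (exact two-sided permutation test over 84 arrangements, p = 0.0952). As a share of miRNA reads the groups overlapped, since miR-22-3p took 1.42% (95% exact binomial interval 1.33% to 1.51%) in sham library 1 and 1.74% (1.64% to 1.85%) in PAB library 2. The 2 low libraries stayed low as shares, with 0.0976% (0.0587% to 0.152%) in PAB library 1 and 0.016% (0.00692% to 0.0316%) in PAB library 4. On the log2 scale of counts scaled by the TMM factors of edgeR, the sham libraries were less even, at 12.95, 13.36 and 15.27. The PAB libraries ran from 7.71 to 14.65 on that scale. The log2FC from edgeR was −0.73 (standard error 1.65, adjusted p = 0.913), and without sham library 3 the log2FC was 0.34.

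PAB library 1 had the lowest miRNA share of all libraries, 0.101% of its reads, but PAB library 4 had 0.326% and 49909 miRNA reads, of which 16 came from the 6 miRNAs together. The 6 took 0.0321% of the miRNA reads in PAB library 4 and 0.149% in PAB library 1, against 1.15% to 3.74% in the other PAB libraries and 3.18% to 5.46% in the sham group. The summed level of 6 platelet miRNAs, all of them listed, was 1235 to 2178 RPM for sham and 198 to 1418 RPM for PAB. This sum includes miR-191a-5p, which alone had 2163 to 25104 reads per library. miR-223-3p, a defining platelet and myeloid miRNA, had 683 reads in PAB library 5 and 0 or 1 in each of the others. Of 8 red blood cell miRNAs 6 were listed, with a summed level of 95.1 to 119 RPM for sham and 74.8 to 215 RPM for PAB. Of 8 muscle miRNAs 5 were listed, with 5.96 to 95.9 RPM and 2.86 to 63.7 RPM. Heart-specific miR-208a-3p was looked for as 1 of the 8 and was not among those listed. As a measure of haemolysis, miR-451-5p over miR-23a-3p averaged −2.46 ± 2.74 (SD, n = 6) on the log2 scale for PAB and −5.34 ± 3.37 (SD, n = 3) for sham, a difference of 2.88 (exact permutation test, p = 0.274). The part of platelets, red blood cells and haemolysis in the levels was not tested. A serum level does not tell the number of source cells from the amount that each released.

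**Figure D2:**
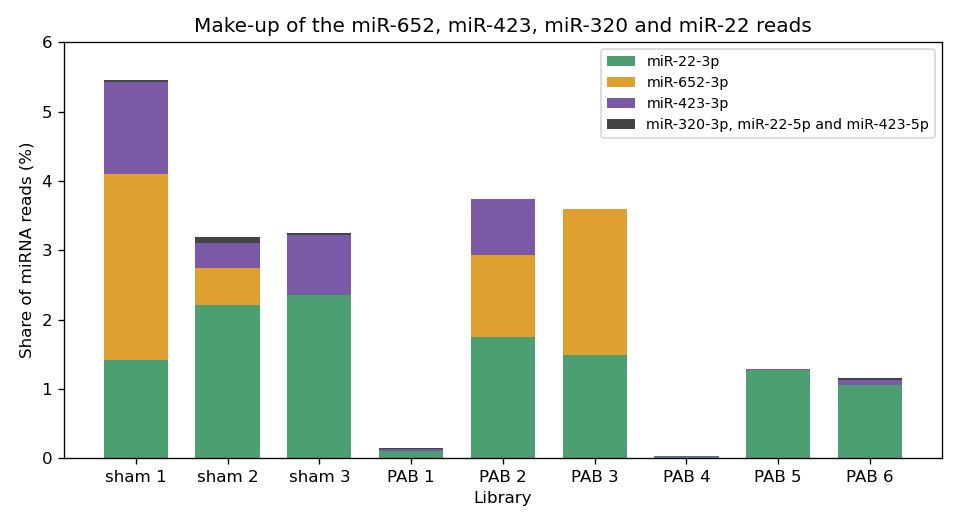
Share of all miRNA reads (vertical axis, percent) taken by miR-22-3p, miR-652-3p, miR-423-3p and the 3 scarce miRNAs in each library (horizontal axis), as stacked bars from 0. PAB libraries 1 and 4 hold almost none of the 6, at 0.149% and 0.0321%, and miR-652-3p makes a visible part of the bar in sham libraries 1 and 2 and PAB libraries 2 and 3 alone.

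miR-652-3p was either plentiful or almost missing, and both states occurred in both groups. Sham libraries 1 and 2 held 139 and 21.0 RPM (1754 and 351 reads), while sham library 3 held 0.059 RPM from 1 read. In the PAB group it ran from 0 to 48.8 RPM with a median of 0.111 RPM. Libraries 2 and 3 carried 763 and 558 of the 1325 PAB reads, and the other 4 had 0 to 2 reads each. Sham library 1 alone gave 51.1% of all reads of this miRNA. The means of 53.3 ± 74.9 RPM (SD, n = 3) and 14.2 ± 22.2 RPM (SD, n = 6) each had an SD larger than the mean. The difference of log2(RPM + 0.1) was −2.92, with p = 0.321 in the exact permutation test. The log2FC from edgeR was 0.18 (standard error 2.42, adjusted p = 0.982), and with 1 library left out it ran from −0.73 without PAB library 3 to 2.35 without sham library 1. Its sign also turned with the scaling, with −0.96 when miRNA read totals and −1.91 when the totals implied by RPM replaced the TMM factors of edgeR. On those scales the median of all tested miRNAs moved to −0.86 and −1.54, so that miR-652-3p lay 0.10 and 0.37 below the median, against 0.32 above it with TMM.

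miR-423-3p, the partner arm of the heart failure marker miR-423-5p, had 240 reads or more in every sham library and in 1 PAB library. It had 68.8, 14.3 and 28.7 RPM in the sham group, from 868, 240 and 487 reads. In the PAB group it ran from 0.129 to 33.5 RPM with a median of 0.391 RPM. PAB library 2 held 524 of the 567 PAB reads, inside the sham range, and the other 5 libraries had 2 to 22 reads, all below the lowest sham value. The means were 37.3 ± 28.2 RPM (SD, n = 3) and 6.06 ± 13.5 RPM (SD, n = 6), 6.15-fold higher in the sham group. The difference of log2(RPM + 0.1) was −4.89, with p = 0.0476 in the exact permutation test and an adjusted p of 0.193 over the 162 tested miRNAs. On this scale 40 of the 162 had an exact p under 0.05, and the median difference was −1.30, with 82.1% of the miRNAs below 0. In edgeR its log2FC was −1.82 (standard error 2.17, adjusted p = 0.744). Without PAB library 2 it was −4.81 (standard error 2.35, adjusted p = 0.315 from edgeR), and without sham library 3 it was −1.03. limma-voom gave −3.43 with an unadjusted p of 0.0497 and an adjusted p of 0.804.

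miR-320-3p, a miRNA that targets the small heat shock protein Hsp20 in the mouse heart, was low in all libraries and lower in each PAB library than in any sham library. It had 1.58, 2.51 and 0.59 RPM in the sham group, from 20, 42 and 10 reads. The PAB libraries ran from 0.064 to 0.234 RPM with a median of 0.13 RPM, from 1 to 3 reads each. All 6 PAB values were therefore at or below the floor of 3 reads per library, 13 reads in total against 72 in the 3 sham libraries. The means were 1.56 ± 0.960 RPM (SD, n = 3) and 0.137 ± 0.0705 RPM (SD, n = 6), 11.4-fold higher in the sham group. The difference of log2(RPM + 0.1) was −2.67 with p = 0.0119 in the exact permutation test, the smallest p that 84 arrangements allow. Adjusted over the 162 tested miRNAs it was 0.148. This was the lowest adjusted p in this test, but other miRNAs shared it, and 40 of the 162 had an exact p under 0.05. At such low levels the size of the difference depends on the amount added, and with 1 RPM added it was −1.10. With 1 to 3 reads in each PAB library, the size of the difference is uncertain.

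Among the 5 tested, miR-22-3p and miR-320-3p had all sham libraries above all PAB libraries in RPM, and the same held for 9.88% of all tested miRNAs. As a share of miRNA reads it held for miR-320-3p alone, against 4.94% of all. After TMM scaling it held for 0 of the 5, again against 4.94% of all, since miR-320-3p then ran from 7.69 to 8.42 for sham and from 5.88 to 7.87 for PAB on the log2 scale of counts per TMM-scaled library. Sham libraries 1 and 2 had TMM factors of 1.80 and 2.17 and sham library 3 had 0.614, which lowers the former and raises the latter. For miR-320-3p the log2FC from edgeR was −1.79 (standard error 1.14, adjusted p = 0.409). With the totals implied by RPM it was −3.45 (adjusted p = 0.0769 from edgeR), the lowest adjusted p of the miRNA among 20 alternatives, and edgeR then called 0 of the 5 lower but 14.2% of all tested miRNAs. Set against the median of all tested miRNAs, it lay 1.64 lower with TMM and 1.91 lower with the totals implied by RPM, both on the log2 scale. With at least 10 reads asked for in 3 libraries it was −2.64 (unadjusted p = 0.00766, adjusted p = 0.567 from edgeR over 74 miRNAs). The miRNA passed that filter through the sham libraries alone (20, 42 and 10 reads). The filter thus depended on the group difference, and this p is no separate support for it. Leaving out 1 library gave −2.26 to −1.61, all below 0.

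**Figure D3:**
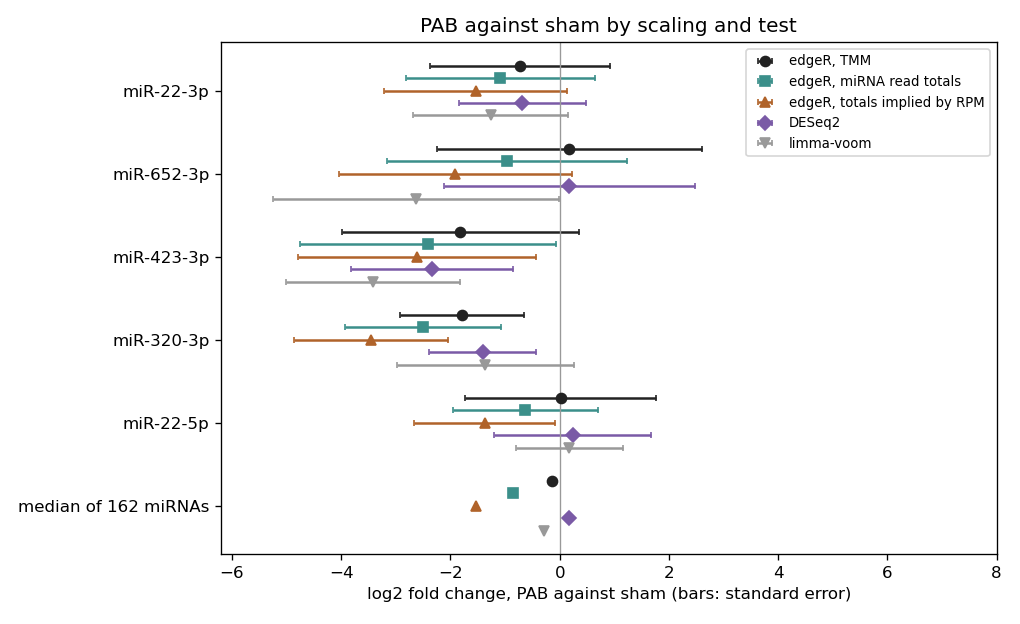
Log2FC of PAB against sham (horizontal axis, bars 1 standard error) for the 5 tested miRNAs under 5 scalings or tests, with the median of all 162 tested miRNAs in the lowest row. miR-423-3p and miR-320-3p are below 0 in all 5, whereas miR-652-3p lies at 0.18 with TMM and at −2.63 with limma-voom.

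The minor arms were at the limit of detection. The sham libraries gave 0, 5 and 1 reads of miR-22-5p, and the PAB libraries 0 to 2, with none in 3 of them. Its log2FC was 0.02 (standard error 1.75, adjusted p = 0.999 from edgeR), and with so few reads a difference was not detectable at this depth. miR-423-5p, the arm proposed as a heart failure marker, had 1 read in sham library 1, 2 reads in sham library 2 and no read in any of the other 7 libraries. It was above 0 in 2 libraries and did not pass the filter. With no filter on low counts it had an adjusted p of 0.397 from edgeR, and no fold is given, since its 3 sham reads equal the floor.

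The ratio of the arms within a library needs no scaling between libraries, but it rests on few reads of the 5p arm. For miR-22, the 5p arm made up 0.158% of the reads of both arms, and for miR-423 it made up 0.139%. The 5p share of miR-22 was 0.347% (95% exact binomial interval 0.113% to 0.808%) in sham library 2, the highest in the sham group. PAB library 1 had 1 read of 5p in 20, a share of 5% with an interval of 0.127% to 24.9%, so it could not be told from the sham value. With 0.5 reads added to each arm, the log2 ratio of 3p to 5p of miR-22 was 9.56 ± 1.43 for sham (SD, n = 3) and 7.42 ± 3.04 for PAB (SD, n = 6), and the exact permutation test gave p = 0.298. The 5p arm had 0 reads in sham library 1 and PAB libraries 2, 3 and 4, where the added 0.5 and the 3p reads alone set the ratio. For miR-423 it was 8.56 ± 1.75 and 4.83 ± 2.76, with p = 0.0833 in the exact test. In the PAB group the 5p arm of miR-423 was at 0 reads throughout, so that its ratio follows the unscaled reads of the 3p arm alone and says nothing on the use of the arms. Without PAB library 2, which had 524 reads of the 3p arm, the exact p for miR-423 was 0.0179. That is the smallest p that 56 arrangements allow.

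The 3 abundant miRNAs did not always go up and down together over the 9 libraries. All 3 had more than 25 reads in sham libraries 1 and 2 and PAB library 2, and all 3 had fewer in PAB libraries 1 and 4. PAB library 3 held miR-22-3p and miR-652-3p but had 2 reads of miR-423-3p, and sham library 3 held miR-22-3p and miR-423-3p but had 1 read of miR-652-3p. PAB libraries 5 and 6 held miR-22-3p above this limit alone, with 768 and 314 reads. Spearman's rho of the TMM levels over the 9 libraries was 0.47 between miR-22-3p and miR-423-3p, 0.42 between miR-22-3p and miR-652-3p, and 0.18 between miR-652-3p and miR-423-3p. In RPM the same pairs had 0.72, 0.38 and 0.47. Such a switch from many reads to nearly none was common in the table. Of 75 tested miRNAs with at least 240 reads in some library, 53 had 2 reads or fewer in another (70.7%), and of the 3 members at that level miR-652-3p and miR-423-3p did so. These limits were chosen after the values were seen.

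For miR-652-3p, the miRNAs with the most similar TMM levels over the 9 libraries, among 109 others above 0 in at least 5 libraries, were miR-429 (rho 0.81), miR-99a-5p (0.75) and miR-98-5p (0.72). miR-99a-5p had 519 and 510 reads in PAB libraries 2 and 3, the libraries where miR-652-3p was high, and 7 to 19 reads in the other PAB libraries, but it also had 336 reads in sham library 3. miR-429, a member of the miR-200 family of epithelia, had 1063 and 499 reads in PAB libraries 2 and 3 and 0 in the other 4. In the sham group it had 285, 1 and 355 reads, so that sham libraries 2 and 3 went the opposite way to miR-652-3p. For miR-423-3p they were miR-375-3p (0.96), miR-149-5p (0.87) and miR-21-5p (0.80). miR-375-3p, known from pancreatic islets, had 381 reads in PAB library 2 and 0 or 1 in the other PAB libraries, and 446, 5 and 298 reads in the sham group. For miR-320-3p they were miR-96-5p (0.92), miR-193b-3p (0.88) and a miRNA predicted by the authors (0.88), each with at most 28 reads in any library. The nearest to miR-22-3p were miR-935 (0.78), a predicted miRNA (0.71) and miR-181c-5p (0.66), with at most 6 reads in any library. Those nearest to miR-22-5p were miR-192-5p (0.91), miR-214-3p (0.91) and miR-30b-5p (0.87). Of these, miR-192-5p reached 465 reads and miR-30b-5p 229, while miR-214-3p had at most 1 read in any library. miR-22-5p itself had at most 5. The 9 points share their library size and scaling factor, so these values are descriptions.

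Other miRNAs proposed as circulating markers of heart failure or cardiac injury gave 0 calls as well. Of 20 names, 14 were listed and 12 passed the filter, and edgeR called 0 higher and 0 lower, with 1 of the 12 at an unadjusted p under 0.05. DESeq2 and limma-voom also called 0 of the 12. Of all 162 tested miRNAs, edgeR called 0% higher and 1.23% lower, DESeq2 5.56% and 2.47%, and limma-voom 0 either way. With so few calls in all, 0 of 12 says little about these miRNAs. Their log2FC was below 0 in 7 of 12, with a median of −0.56, where 86 of all 162 tested miRNAs were below 0 with a median of −0.15. The lowest p belonged to miR-18a-5p (log2FC −5.94, adjusted p = 0.071 from edgeR), which had 216 of its 219 reads in sham library 2. It was followed by miR-223-3p of myeloid cells and platelets (7.61), miR-26b-5p (−2.06) and miR-221-3p of endothelium (−2.01), all with an adjusted p of 0.345 from edgeR. A single library, PAB library 5, held 683 of the 687 reads of miR-223-3p. miR-499-5p, which is encoded in a myosin gene and belongs to the list of heart and skeletal muscle miRNAs, had 19, 42 and 1 reads for sham and 0 to 3 for PAB. Its log2FC was −2.19 (adjusted p = 0.351 from edgeR). The other listed muscle miRNAs had a log2FC of 2.94 (miR-206-3p), −0.10 (miR-133b-3p), −1.18 (miR-1b) and −1.25 (miR-133a-3p).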

How the data were processed

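Per the study's methods, serum RNA was turned into small RNA libraries by adaptor ligation and PCR and read from a single end over 50 bases, and clean reads were aligned to Rnor_6.0 with Bowtie 2.2.5 and compared with miRBase and Rfam. The submitters' processing notes name Bowtie2 2.2.9, GRCh38.p13 and DESeq2. The deposited table holds whole read counts, not normalized, and the authors' RPM, the count scaled by a total that is not in the table. The counting rule is not given in the sources used here. 

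Counts were tested with edgeR 4.0.16 (R 4.3.3, TMM factors, quasi-likelihood, Benjamini-Hochberg over the 162 miRNAs above 0 in at least 3 libraries). A standard error is |log2FC| divided by the square root of F. Exact permutation tests used log2(RPM + 0.1) and, where an adjusted p is given, Benjamini-Hochberg over the 162, not over the members as first planned. The log2 levels for likeness used a prior count of 2. DESeq2 1.42.0, limma-voom 3.58.1, other scalings and filters, a replicate block and leaving out each library were alternatives. DESeq2 without its filters and libraries 1 to 3 without the block were added after the data were seen. Scripts were tested on simulated data with less spread between libraries and more reads than these data. Those tests checked the code, not the power here. Values and plots were made in Python 3.11.15 (matplotlib 3.10.9, pandas 2.3.3, scipy 1.17.1, numpy 2.4.6).

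The rows follow the rule on names, and the likeness rule took the 3 highest rho per member. Members, marker lists and the heart failure list, of which up to 4 with the smallest p were named, were chosen with earlier results of these data known. miR-499-5p and the other marker miRNAs named were chosen after their values were seen. Whether rats shared a cage, day or run is not given, so p-values measure the spread between these libraries.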

Additional observations from a re-analysis of the deposited data

Results flagged for a closer look

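miR-423-3p in PAB library 2, at 33.5 RPM, stood apart from the other 5 PAB libraries, the next of which had 1.72 RPM. The gap was 0.952 of the range of the group, above Dixon's critical value of 0.625 for 6 samples. miR-22-5p in PAB library 6, at 0.156 RPM, also passed this value with a gap of 0.667 of the range, but it stands for 2 reads against 1 read in the next libraries. Of 7 sets of PAB values examined 2 passed. Chance lets about 1 in 20 pass only where values are normally distributed. The RPM values here are skewed or rest on 0 to 2 reads, so 2 of 7 is not read as an excess over chance.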

How the results depend on the processing

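Under all 21 alternatives 0 members were called. Over all tested miRNAs, the calls higher were 9 with DESeq2, with or without its filters, and 1 with no filter on low counts, and 0 otherwise. The calls lower were 4 with DESeq2 and 5 without its filters, 0 with limma-voom, with DESeq2's size factors in edgeR and with at least 10 reads in 3 libraries, 6 with miRNA read totals, 23 with the totals implied by RPM, 10 with no filter, 5 with miRBase miRNAs alone, and 0 to 2 with 1 library left out. With the library number as a replicate block (libraries 1 to 3 of each group) 0 were lower, as in the same 6 libraries with no replicate block. For same-numbered libraries, log2 levels were taken as deviations from the mean of libraries 1 to 3 of their group. The correlations of these deviations were −0.11, −0.33 and −0.07. Deviations of 3 libraries from their own mean depend on each other, so these values do not decide whether the numbers pair the rats.

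miR-652-3p turned below 0 with limma-voom (−2.63), miRNA read totals (−0.96), the totals implied by RPM (−1.91), at least 10 reads in 3 libraries (−1.64) and miRBase miRNAs alone (−0.038), and had 2.94 with the block. With 1 library left out it ran from −0.73 to 2.35, miR-22-3p from −1.16 to 0.34 and miR-22-5p from −0.54 to 0.79. miR-22-5p was also below 0 with miRNA read totals (−0.63), the totals implied by RPM (−1.37), and libraries 1 to 3 with the block (−0.71) and without it (−0.78). Its difference of log2(RPM + 0.1) ran from −0.91 to 0.093 with 1 library left out. The ratio of the arms of miR-423 differed by −4.78 to −3.05 with 1 library left out, and passed p ≤ 0.05 in the exact test without PAB library 2. In the PAB group that ratio follows the reads of the 3p arm alone. miR-423-3p and miR-320-3p were below 0 in all 20 alternatives. The cause of these changes was not tested.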
